A study of Homo sapiens with 18 samples.

Results

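The 9 genes described here make the class I antigen presentation pathway: the heavy chains HLA-B, HLA-C, HLA-E and HLA-F, the light chain B2M, the peptide transporter subunits TAP1 and TAP2, and the immunoproteasome subunits PSMB8 and PSMB9. They were named by symbol, and each symbol was matched to its Entrez number in the deposited table, which gave 9 of 9 members among 18475 genes. The study asked how lung epithelial cells and lung cancer cells differ in their response to X-rays. RNA was sequenced from BEAS-2B, a lung epithelial cell line, H446, a small cell lung cancer line, and A549, a lung adenocarcinoma line, all labelled wild type. Each line was measured as untreated controls and 24 h after 10 Gy of X-ray radiation, with 3 libraries in each of the 6 groups and no separate time given for the controls. Each line is 1 established culture line, so that a difference between lines cannot be told apart from a difference in their culture or in the handling of their libraries.

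Class I molecules carry short peptides from inside the cell to its surface, where T cells and natural killer cells read them. Proteasomes cut proteins into peptides, the TAP transporter moves the peptides into the endoplasmic reticulum, and a heavy chain folds there with B2M around 1 of them. Interferon raises most of these genes in many cell types, and tumour cells of the lung are known to carry low levels of some of them.

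Before the results, 1 library stands apart. In the BEAS-2B library labelled 10 Gy replicate 2, the p53 target CDKN1A, a brake of the cell cycle, was at 102 FPKM, against 309.7 and 488 in the other irradiated libraries and 79.9, 86.4 and 86.1 in the controls. FPKM, fragments scaled to the length of the transcript and to the fragments read, is the unit inferred for the deposited values. Log2 fold changes after 10 Gy in BEAS-2B cells are therefore also given without that library. In each line, 10 Gy was compared with control by limma on log2(FPKM + 1) for genes that reached 1 FPKM in 3 or more of the line's 6 libraries. A gene is called here when its adjusted p, by the Benjamini-Hochberg method over all genes tested, is under 0.05, in a two-sided test. SE is the standard error of a log2 fold change, from the same fit. All 9 members passed the filter in each line. Bulk RNA cannot tell fewer cells that carry a transcript from less of it in each cell. The labels do not say whether the libraries of a group come from separate cultures, so each p measures the spread among these libraries only.

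The labels were checked against markers of cell types. The sums of the 6 epithelial markers, led by the keratins, were 1310, 1381 and 1306 FPKM in the controls and 1424, 1506 and 1412 after 10 Gy in BEAS-2B cells. In H446 cells they were 3882, 3868 and 3998 FPKM in the controls and 3608, 3424 and 3335 after 10 Gy, and in A549 cells 1713, 1798 and 1749 FPKM in the controls and 1485, 1528 and 1435 after 10 Gy. Irradiated libraries lay above the controls in BEAS-2B and below them in the other lines, and 3 of the 5 epithelial markers tested in H446 cells were called lower in limma and 0 higher, against 1 lower and 1 higher of 5 in A549 and 0 of 5 in BEAS-2B cells. The shares of all genes tested were 23.6% lower and 14.8% higher in H446, 26.4% lower and 25.3% higher in A549 and 0 in BEAS-2B cells. Of the 7 neuroendocrine markers, 5 were in the table, and in H446 cells, whose label is that of a small cell cancer, they summed to 24.3, 23.03 and 23.1 FPKM in the controls and 15.8, 15.7 and 16.3 after 10 Gy, nearly all of it UCHL1. The same sum was 261 to 287 in BEAS-2B and 501 to 571 in A549 libraries, so these markers did not set H446 apart as neuroendocrine. In A549 cells it was 528.5, 532.2 and 501.1 FPKM in the controls and 571.4, 551.5 and 539.6 after 10 Gy, without overlap, and 0 of the 3 tested were called. The 4 alveolar markers stayed at 0.400 to 0.760, 0.110 to 0.200 and 0.790 to 1.28 FPKM in BEAS-2B, H446 and A549 libraries.

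Leukocytes carry high levels of the genes described here. Of the 8 leukocyte markers, 6 were in the table, and CD68 was the most abundant in each line. In A549 cells their sums were 28.6, 31.4 and 27.4 FPKM in the controls and 37.05, 33.3 and 32.8 after 10 Gy, without overlap, and 2 of the 2 tested were called higher in limma. The sums were 17.5, 19.3 and 17.4 FPKM in the controls and 18.9, 22.9 and 18.1 after 10 Gy in BEAS-2B cells and 9.56, 8.17 and 9.80 FPKM in the controls and 10.1, 8.94 and 11.3 after 10 Gy in H446 cells, where the groups overlapped and 0 of 2 and 0 of 1 were called. The defining marker PTPRC was at 0 in the controls of BEAS-2B and A549 cells and, in both, at 0.01, 0 and 0 FPKM after 10 Gy. In H446 cells PTPRC was at 0.0400, 0 and 0.0800 FPKM in the controls and 0.0400 to 0.0900 after 10 Gy. The 7 fibroblast markers summed to 24.7, 23.7 and 26.03 FPKM in the controls and 29.1, 29.7 and 29.4 after 10 Gy in H446 cells and to 13.9, 13.4 and 12.6 FPKM in the controls and 15.2, 14.3 and 15.7 after 10 Gy in A549 cells, both without overlap, with 1 of 4 and 1 of 3 called higher. In BEAS-2B cells the fibroblast sums were 23.3, 27.5 and 21.6 FPKM in the controls and 25.9, 27.9 and 21.1 after 10 Gy, with 0 of 3 called. Over all genes tested, 14.8% were called higher and 23.6% lower in H446 cells, 25.3% and 26.4% in A549 cells and 0 in BEAS-2B cells, and no marker list was tested against these shares. The part of these marker changes in the log2 fold changes of the members was not tested.

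After 10 Gy, the members that passed the test moved by less than 1.5-fold in every line. In H446 cells, 4 members were called, all of them higher: HLA-B, HLA-E, HLA-F and B2M. Over all 11479 genes tested in that line, 14.8% were called higher and 23.6% lower. That excess of lower calls, 1698 higher and 2709 lower, was not kept by every scaling, with 2171 higher and 2188 lower after quantile normalization, 1880 higher and 2328 lower with equal library totals and 1814 higher and 1703 lower with the trend on GC content removed from each library. The median log2 fold change was 0.06 over the members and -0.03 over all genes. In A549 cells, HLA-C and HLA-E were called higher and TAP2 lower, against 25.3% of 11993 genes called higher and 26.4% lower, so that 2 of 9 lies near the background. The medians were 0.11 for the members and -0.00396 for all genes. In BEAS-2B cells, 0 members were called in limma, and 1 member had an unadjusted p under 0.05. In that line 0 of 11734 genes were called, 0.0% higher and 0.0% lower, while 1446 had an unadjusted p under 0.05. The medians there were 0.14 and 0.00186. With the GC trend removed, the median of the members was 0.13 in H446 cells, against 0.00149 over all genes. It was 0.06 in BEAS-2B cells, against -0.00676 over all genes, so that the order of these 2 lines depends on the scaling. Without BEAS-2B 10 Gy replicate 2, 233 genes were called in that line and 0 of them were members. The log2 fold changes were then 0.16 for HLA-B, 0.13 for HLA-C, 0.01 for HLA-E, 0.02 for HLA-F, 0.01 for B2M, 0.28 for TAP1, 0.15 for TAP2, 0.16 for PSMB8 and -0.01 for PSMB9. At a threshold of 0.01, 3 members were called in H446 and 1 in A549 cells, against 2529 of 11479 and 4611 of 11993 genes, and with a log2 change of at least 1 also asked for, 0 were called in any line in limma.

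The irradiated libraries can also be compared with the controls by whether the values overlap. In H446 cells, all 3 irradiated libraries lay above all 3 controls for 4 members, HLA-B, HLA-E, HLA-F and B2M, and below them for 1, TAP2. Among all genes tested, 20.4% lay above and 29.9% below in this way. In A549 cells, 3 members lay above, HLA-C, HLA-E and B2M, and 1 below, TAP2, against 29.0% and 29.5% of all genes. In BEAS-2B cells, HLA-B, TAP1 and PSMB8 lay above and 0 members below, against 7.48% and 8.87% of all genes. The plot of responses shows the log2 fold change of each member in each line with its standard error.

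**Figure D1:**
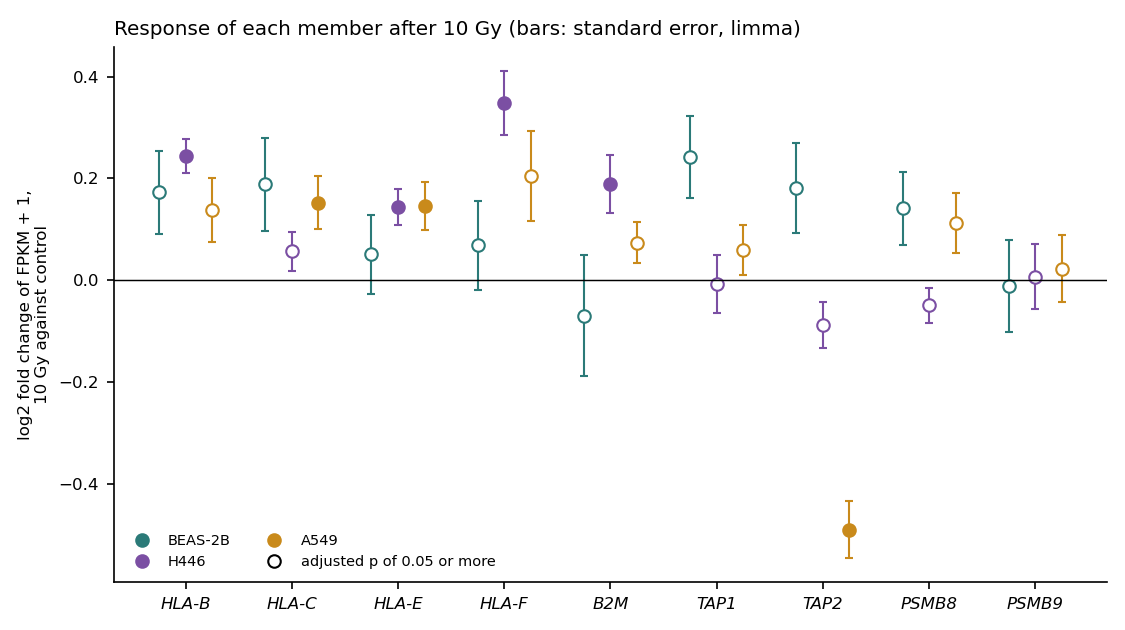
Log2 fold change of FPKM + 1 after 10 Gy against control for the 9 members (horizontal axis) in BEAS-2B, H446 and A549 cells (3 against 3 libraries each). Bars are standard errors from limma, and filled points have an adjusted p under 0.05. TAP2 in A549 cells lies lowest at -0.49, and HLA-F in H446 cells highest at 0.35.

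Among the controls, 8 members were called lower and 1 higher in A549 than in BEAS-2B cells (limma, 1 fit of all 18 libraries and 13071 genes), where 45.4% of all genes were lower and 38.3% higher. Between H446 and BEAS-2B controls, 5 members were called lower in H446 and 4 higher, against 45.9% and 35.2% of all genes. Between H446 and A549 controls, 7 members were called higher in H446 and 1 lower, against 40.5% and 42.7% of all genes. The median log2 difference over the members was -1.16 for A549 against BEAS-2B, -0.67 for H446 against BEAS-2B and 1.06 for H446 against A549, and over all genes it was -0.07, -0.09 and -0.0133. The 3 comparisons share their control groups. The plot of members by library gives every value.

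**Figure D2:**
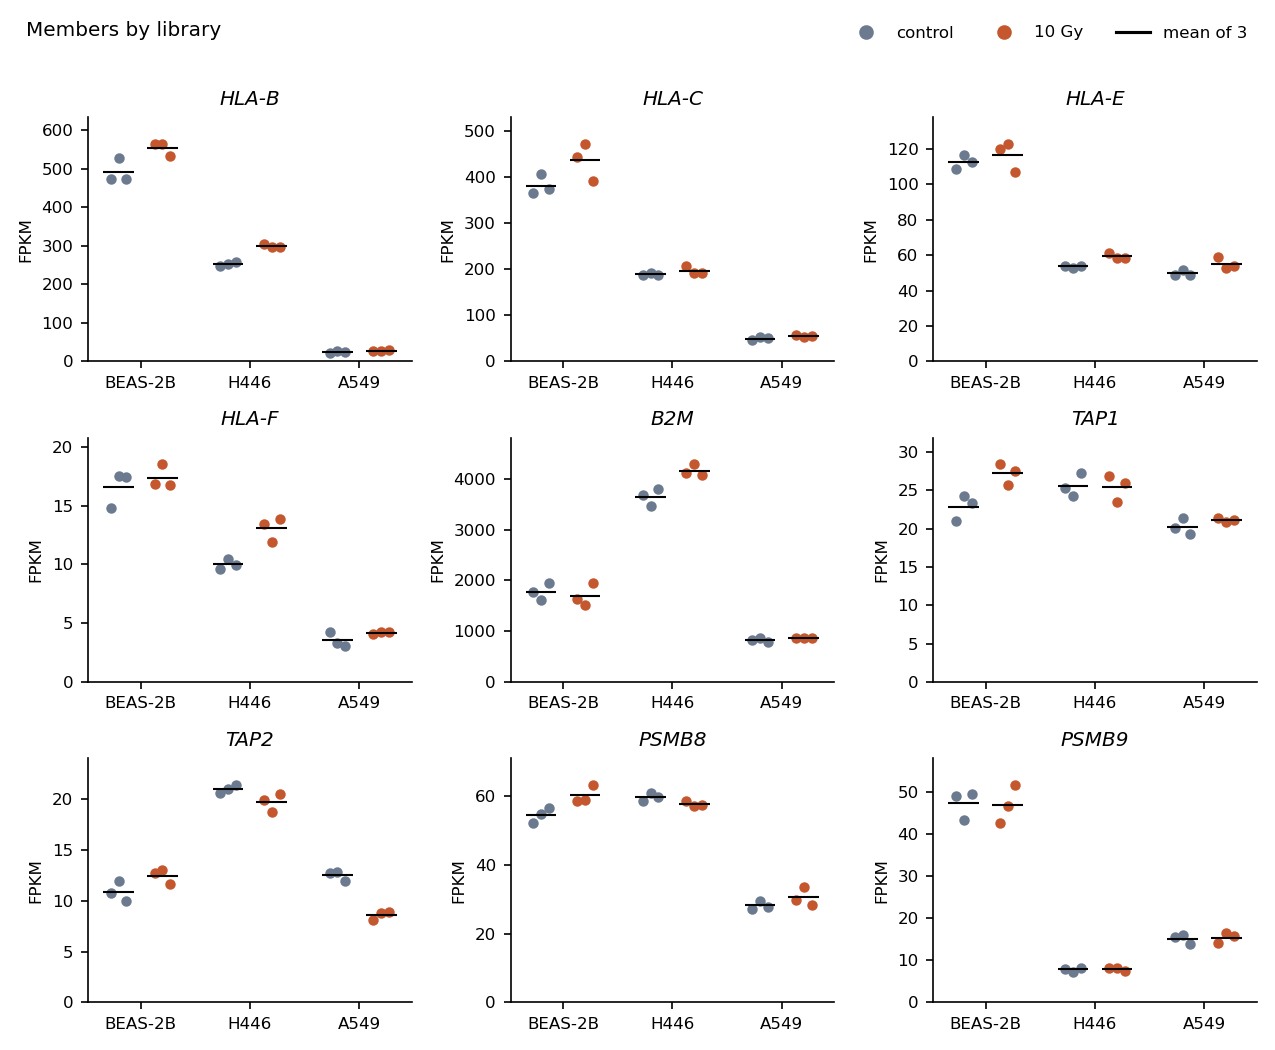
FPKM (vertical axes, from 0) of the 9 members in each of the 18 libraries, grouped by line, with controls in grey, 10 Gy in orange and the mean of 3 libraries as a bar. HLA-B went from a mean of 492 in BEAS-2B controls to 24.7 in A549 controls, while B2M was highest in H446 cells.

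HLA-B (Entrez 3106) is a classical heavy chain, which presents peptides to CD8 T cells. In BEAS-2B cells, HLA-B was at 473, 529 and 475 FPKM in the controls and 565, 565 and 533 after 10 Gy. In H446 cells, HLA-B was at 249, 253 and 257 FPKM in the controls and 305, 298 and 296 after 10 Gy. In A549 cells, HLA-B was at 22.8, 27.1 and 24.3 FPKM in the controls and 27.1, 25.8 and 28.9 after 10 Gy. The irradiated libraries lay above the controls without overlap in BEAS-2B and H446 cells, and the groups overlapped in A549 cells. No library of 1 line came within the range of another. HLA-B rose in irradiated H446 cells by 0.24 on the log2 scale (SE 0.03, adjusted p = 0.000425, limma), 18.5% by the means. Its log2 fold change was 0.17 in BEAS-2B cells (SE 0.08, adjusted p = 0.418, limma) and 0.14 in A549 cells (SE 0.06, adjusted p = 0.0854, limma), neither of them past the threshold. With the GC trend removed, HLA-B gave 0.39 in H446 cells, where it stayed called, and 0.07 in BEAS-2B cells. Without A549 control replicate 2, the A549 value was 0.20 and was called (adjusted p = 0.0141, limma, with a range of 0.0141 to 0.323 over the alternatives), as it was with quantile normalization. That log2 fold change ran from 0.0816 to 0.203 over the alternatives. In the controls, the mean was 492 ± 31.8 in BEAS-2B, 253 ± 4.24 in H446 and 24.7 ± 2.203 FPKM in A549 cells (SD, n = 3 each). By these means, HLA-B was 19.9-fold lower in A549 than in BEAS-2B cells (log2 difference -4.26, SE 0.06, adjusted p = 3.22e-21, limma). It was 1.95-fold lower in H446 than in BEAS-2B cells (log2 difference -0.96, SE 0.06, adjusted p = 2.52e-11, limma). The same gene was 10.2-fold higher in H446 than in A549 cells (log2 difference 3.31, SE 0.06, adjusted p = 1.25e-19, limma). Reads of every line were assigned to the same build, hg38, and alleles of HLA genes are not separated. The part of allele differences between lines in the levels and ratios of this and the other heavy chains was not tested.

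HLA-C (Entrez 3107), another classical heavy chain, also binds inhibitory receptors of natural killer cells. In BEAS-2B cells, HLA-C was at 365, 408 and 374 FPKM in the controls and 445, 473 and 392 after 10 Gy. In H446 cells, HLA-C was at 188, 193 and 187 FPKM in the controls and 207, 193 and 192 after 10 Gy. In A549 cells, HLA-C was at 45.5, 52.7 and 50.6 FPKM in the controls and 56.8, 53.4 and 55.2 after 10 Gy. The irradiated A549 libraries lay above their controls, and the groups overlapped in BEAS-2B and H446 cells. In A549 cells HLA-C rose by 0.15 on the log2 scale (SE 0.05, adjusted p = 0.0275, limma), 11.2% by the means and in 3 of 3 libraries. This call was lost without A549 10 Gy replicate 1 (0.13, adjusted p = 0.0827, limma), 10 Gy replicate 3 (0.15, adjusted p = 0.0565) or control replicate 1 (0.09, adjusted p = 0.138), and also without the filter, without limma's trend and where all 18 libraries shared 1 fit, with an adjusted p of 0.00744 to 0.138 over the alternatives. The log2 fold change was 0.06 in H446 cells (SE 0.04, adjusted p = 0.265, limma) and 0.19 in BEAS-2B cells (SE 0.09, adjusted p = 0.427, limma). With the GC trend removed, the H446 value was 0.25 and was called (adjusted p = 0.000313, limma, with a range of 0.000313 to 0.62 over the alternatives). By the means, HLA-C was 7.71-fold lower in A549 than in BEAS-2B controls (log2 difference -2.92, SE 0.07, adjusted p = 3.88e-18, limma). It was 2.02-fold lower in H446 than in BEAS-2B controls (log2 difference -1.01, SE 0.07, adjusted p = 4.88e-11, limma). Against A549 controls, H446 controls were 3.81-fold higher (log2 difference 1.91, SE 0.07, adjusted p = 2.24e-15, limma).

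HLA-E (Entrez 3133), a heavy chain that presents leader peptides of other class I chains to receptors of natural killer cells, was the heavy chain with the closest means in H446 and A549 controls. In BEAS-2B cells, HLA-E was at 109, 116 and 112 FPKM in the controls and 120.0, 123 and 107 after 10 Gy. In H446 cells, HLA-E was at 53.97, 53.01 and 54.1 FPKM in the controls and 61.3, 58.6 and 58.5 after 10 Gy. In A549 cells, HLA-E was at 48.95, 51.6 and 48.7 FPKM in the controls and 58.9, 52.8 and 53.9 after 10 Gy. Irradiated libraries lay above the controls in H446 and A549 cells and overlapped them in BEAS-2B cells. HLA-E rose by 0.14 on the log2 scale in H446 cells (SE 0.04, adjusted p = 0.00914, limma), 10.7% by the means, and by 0.24 with the GC trend removed. This call was lost when all 18 libraries shared 1 fit (adjusted p = 0.0575, limma, with a range of 0.000285 to 0.0575 over the alternatives). In A549 cells it rose by 0.15 (SE 0.05, adjusted p = 0.0208, limma), 10.9% by the means, in 3 of 3 libraries. That call was lost without A549 10 Gy replicate 1 (0.10, adjusted p = 0.0852, limma), control replicate 1 (0.13, adjusted p = 0.0715) or control replicate 3 (0.13, adjusted p = 0.0677), with a range of 0.00385 to 0.0852 over the alternatives, and also without limma's trend. BEAS-2B cells had a log2 fold change of 0.05 (SE 0.08, adjusted p = 0.792, limma), and it was -0.02 with the GC trend removed. By the means, HLA-E was 2.26-fold lower in A549 than in BEAS-2B controls (log2 difference -1.16, SE 0.05, adjusted p = 2.22e-13, limma) and 2.09-fold lower in H446 controls (log2 difference -1.05, SE 0.05, adjusted p = 1.11e-12, limma). Between H446 and A549 controls, the log2 difference of 0.11 did not pass the threshold (SE 0.05, adjusted p = 0.0695, limma), though the libraries did not overlap. It was called without A549 control replicate 2 (0.13, adjusted p = 0.0479, limma, with a range of 0.00707 to 0.877 over the alternatives), under equal library totals and with the GC trend removed.

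HLA-F (Entrez 3134), a nonclassical heavy chain, was the lowest of the 4 heavy chains in every library. In BEAS-2B cells, HLA-F was at 14.8, 17.5 and 17.4 FPKM in the controls and 16.9, 18.5 and 16.8 after 10 Gy. In H446 cells, HLA-F was at 9.62, 10.5 and 9.99 FPKM in the controls and 13.4, 11.9 and 13.9 after 10 Gy. In A549 cells, HLA-F was at 4.22, 3.29 and 3.10 FPKM in the controls and 4.10, 4.23 and 4.26 after 10 Gy. H446 libraries were all higher after 10 Gy than before, and the groups of the other lines overlapped. HLA-F rose in H446 cells by 0.35 on the log2 scale (SE 0.06, adjusted p = 0.00195, limma), 30.2% by the means, the largest rise among the members called in any line. Its log2 fold change was 0.20 in A549 cells (SE 0.09, adjusted p = 0.0718, limma). Control replicate 1 was the highest A549 control, and without it HLA-F was called (0.31, adjusted p = 0.00664, limma, with a range of 0.00664 to 0.25 over the alternatives). BEAS-2B cells gave 0.07 (SE 0.09, adjusted p = 0.754, limma), which was -0.03 with the GC trend removed. By the means of the controls, HLA-F was 4.69-fold lower in A549 than in BEAS-2B cells (log2 difference -1.96, SE 0.09, adjusted p = 9.70e-14, limma). In H446 cells it was 1.65-fold lower than in BEAS-2B cells (log2 difference -0.67, SE 0.09, adjusted p = 7.79e-07, limma) and 2.84-fold higher than in A549 cells (log2 difference 1.29, SE 0.09, adjusted p = 5.30e-11, limma).

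The heavy chains did not keep 1 ratio to each other. The ratio of HLA-B to HLA-C within a library was 1.29, 1.297 and 1.27 in BEAS-2B controls, 1.32, 1.31 and 1.38 in H446 controls and 0.5001, 0.515 and 0.481 in A549 controls. HLA-B was thus the more abundant of the pair in BEAS-2B and H446 cells and the less abundant in A549 cells. After 10 Gy the ratio was 1.27, 1.19 and 1.36 for BEAS-2B, 1.48, 1.55 and 1.55 for H446 and 0.477, 0.483 and 0.524 for A549 cells. In H446 cells the irradiated libraries lay above the controls, with a mean of 1.52 ± 0.0412 against 1.34 ± 0.0329 (SD, n = 3 each), and in the other lines the groups overlapped. In all groups but 2, the order of the means was HLA-B, HLA-C, HLA-E and HLA-F from high to low. In A549 cells, HLA-C and HLA-E came first, at 49.6 and 49.8 FPKM in the controls, with overlapping libraries.

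Upstream sequences are shown for HLA-B, HLA-C and HLA-F because HLA-B and HLA-F rose in H446 cells while HLA-C did not pass the test there. That contrast depends on the scaling. HLA-C was called in H446 cells in 1 of 17 alternatives, with the GC trend removed (0.25, adjusted p = 0.000313, limma). Each is the 250 bases before the RefSeq start on the strand of the gene, in build GRCh38.p14: chr6:31357180-31357429 (minus strand), chr6:31272093-31272342 (minus strand) and chr6:29723184-29723433 (plus strand). Of the 9 members, 8 had an entry in the set of promoters used here, and HLA-E had none in that set. Capitals mark, on either strand, the core of the interferon-stimulated response element, GAAA, any pair of bases and GAAA again, and matches to the kappaB consensus. Within these windows HLA-B and HLA-C hold a kappaB match and HLA-F a response element core. Only exact matches to these patterns were sought. A variant form of the response element in the HLA-B or HLA-C window would therefore not be marked. Of all 35116 promoters of this length, 3.02% hold the response element core and 9.96% a kappaB match. CCAAT, read on either strand, is found in all 3 windows and in 32.01% of all promoters, and TGACG in those of HLA-B and HLA-C and in 21.22%. A match is a description of letters, not of a bound site.
HLA-B: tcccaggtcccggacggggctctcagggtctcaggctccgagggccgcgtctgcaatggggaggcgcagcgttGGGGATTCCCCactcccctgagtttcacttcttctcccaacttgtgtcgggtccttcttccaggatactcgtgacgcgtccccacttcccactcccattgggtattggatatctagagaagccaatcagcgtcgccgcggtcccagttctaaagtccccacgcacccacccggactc
HLA-C: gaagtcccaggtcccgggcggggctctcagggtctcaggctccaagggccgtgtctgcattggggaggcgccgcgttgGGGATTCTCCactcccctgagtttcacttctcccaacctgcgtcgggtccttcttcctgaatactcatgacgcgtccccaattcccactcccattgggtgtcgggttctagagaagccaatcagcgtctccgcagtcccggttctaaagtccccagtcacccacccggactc
HLA-F: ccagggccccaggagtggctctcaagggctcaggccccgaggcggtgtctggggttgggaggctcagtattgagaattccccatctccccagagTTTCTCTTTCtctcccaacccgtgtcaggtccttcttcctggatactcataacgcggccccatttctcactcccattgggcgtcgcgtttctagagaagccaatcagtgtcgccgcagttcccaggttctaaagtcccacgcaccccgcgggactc

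B2M (Entrez 567), the light chain that pairs with class I heavy chains, lies on chromosome 15 (44711517 to 44718145), apart from the other members. In BEAS-2B cells, B2M was at 1779, 1607 and 1945 FPKM in the controls and 1636, 1507 and 1950.2 after 10 Gy. In H446 cells, B2M was at 3674, 3475 and 3799 FPKM in the controls and 4116, 4291 and 4067 after 10 Gy. In A549 cells, B2M was at 827, 856 and 783 FPKM in the controls and 866, 862 and 866 after 10 Gy. It was the most abundant member in every library and held rank 4 among all genes in each of the 6 H446 libraries. Irradiated libraries lay above the controls in H446 and A549 cells, and the BEAS-2B groups overlapped. B2M rose in H446 cells by 0.19 on the log2 scale (SE 0.06, adjusted p = 0.0224, limma), 13.95% by the means. That call was lost without H446 10 Gy replicate 1 (0.20, adjusted p = 0.05003, limma), control replicate 1 (0.19, adjusted p = 0.0721) or control replicate 2 (0.15, adjusted p = 0.113), with a range of 0.00168 to 1 over 17 alternatives, of which 7 kept it. Quantile normalization gives each rank 1 value, so that B2M, always at rank 4, had a log2 fold change of 0 under it. The call was also lost without the filter, with the replicate number as a block and where all 18 libraries shared 1 fit. With the GC trend removed the value was 0.13 (adjusted p = 0.107, limma). The log2 fold change was 0.07 in A549 cells (SE 0.04, adjusted p = 0.152, limma), and -0.01 with quantile normalization. The BEAS-2B value was -0.07 (SE 0.12, adjusted p = 0.81, limma), and it turned to 0.01 with the GC trend removed and to 0.01 without 10 Gy replicate 2. By the means of the controls, B2M was 2.16-fold lower in A549 than in BEAS-2B cells (log2 difference -1.11, SE 0.08, adjusted p = 3.01e-10, limma). It was 2.05-fold higher in H446 than in BEAS-2B cells (log2 difference 1.04, SE 0.08, adjusted p = 8.65e-10, limma) and 4.44-fold higher than in A549 cells (log2 difference 2.15, SE 0.08, adjusted p = 1.13e-14, limma).

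The light chain and the heavy chains were thus ordered differently across the lines. The ratio of B2M to HLA-B, in FPKM within a library, was 3.76, 3.04 and 4.099 in BEAS-2B controls, 14.8, 13.7 and 14.8 in H446 controls and 36.3, 31.6 and 32.2 in A549 controls. The 3 lines did not overlap. After 10 Gy it was 2.89, 2.67 and 3.66 in BEAS-2B, 13.5, 14.4 and 13.7 in H446 and 31.9, 33.5 and 29.9 in A549 cells, within or overlapping the range of the controls in each line. The 250 bases before the B2M start (chr15:44711267-44711516, plus strand, GRCh38.p14, RefSeq) hold a pair of overlapping response element cores and a kappaB match, in capitals here as above. They are shown for comparison with the heavy chains, since B2M was called higher in H446 cells, as were HLA-B and HLA-F but not HLA-C. The B2M call was kept in 7 of 17 alternatives. With the GC trend removed, HLA-C was called in H446 cells and B2M was not.
B2M: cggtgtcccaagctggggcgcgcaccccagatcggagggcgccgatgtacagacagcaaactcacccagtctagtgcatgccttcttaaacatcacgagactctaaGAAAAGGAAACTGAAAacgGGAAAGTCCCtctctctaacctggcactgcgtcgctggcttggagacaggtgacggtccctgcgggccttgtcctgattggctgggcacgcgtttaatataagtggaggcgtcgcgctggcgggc

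TAP1 (Entrez 6890) and TAP2 (Entrez 6891) form the transporter that brings peptides to the heavy chains, 1 copy of each per complex. In BEAS-2B cells, TAP1 was at 20.98, 24.2 and 23.4 FPKM in the controls and 28.4, 25.7 and 27.5 after 10 Gy. In H446 cells, TAP1 was at 25.3, 24.2 and 27.2 FPKM in the controls and 26.9, 23.5 and 25.9 after 10 Gy. In A549 cells, TAP1 was at 20.01, 21.4 and 19.3 FPKM in the controls and 21.4, 20.8 and 21.1 after 10 Gy. Irradiated BEAS-2B libraries lay above their controls, and the groups overlapped in H446 and A549 cells. BEAS-2B cells had a log2 fold change of 0.24 (SE 0.08, adjusted p = 0.289, limma), 19.02% by the means, and did not pass the threshold. It was 0.28 without BEAS-2B 10 Gy replicate 2 (adjusted p = 0.183, limma), and it was called where all 18 libraries shared 1 fit (adjusted p = 0.0308, with a range of 0.0308 to 0.958 over the alternatives). With the GC trend removed it was 0.15. TAP1 gave -0.01 in H446 cells (SE 0.06, adjusted p = 0.929, limma), a direction that turned under each of the 3 scalings (0.12 with the GC trend removed), and 0.06 in A549 cells (SE 0.05, adjusted p = 0.326, limma). Its levels were the closest of all members across the lines, and each group overlapped the next in order of the mean. H446 controls were higher than A549 controls by 0.32 (SE 0.06, adjusted p = 0.000132, limma). Against BEAS-2B controls the log2 difference was -0.17 for A549 (SE 0.06, adjusted p = 0.0221, limma) and 0.16 for H446 (SE 0.06, adjusted p = 0.032, limma). The A549 call was lost without any 1 of A549 control replicates 1 (-0.16, adjusted p = 0.0558, limma) and 3 (-0.13, adjusted p = 0.0953) and BEAS-2B control replicates 2 (-0.13, adjusted p = 0.0991) and 3 (-0.15, adjusted p = 0.0658), with a range of 0.00502 to 0.356 over the alternatives, and under each of the 3 scalings. The H446 call was lost without H446 control replicate 1 (0.16, adjusted p = 0.0533, limma) or 3 (0.11, adjusted p = 0.153) or BEAS-2B control replicate 1 (0.10, adjusted p = 0.187), with a range of 0.00129 to 0.187.

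TAP2 in A549 cells had the largest log2 fold change of any member in any line, and it fell. In A549 cells, TAP2 was at 12.8, 12.8 and 11.96 FPKM in the controls and 8.12, 8.81 and 8.92 after 10 Gy. In H446 cells, TAP2 was at 20.6, 20.99 and 21.4 FPKM in the controls and 19.9, 18.8 and 20.5 after 10 Gy. In BEAS-2B cells, TAP2 was at 10.8, 11.96 and 10.03 FPKM in the controls and 12.8, 13.04 and 11.7 after 10 Gy. Every irradiated library lay below every control in A549 cells and, by a smaller margin, in H446 cells, while the BEAS-2B groups overlapped. In A549 cells the mean went from 12.5 ± 0.474 to 8.62 ± 0.434 FPKM (SD, n = 3 each), a change of -31.1%, with a log2 fold change of -0.49 (SE 0.06, adjusted p = 2.03e-05, limma). This call was kept in 16 of 17 alternatives, with log2 fold changes of -0.53 to -0.45, and was lost where a change of at least 1 on the log2 scale was also asked for. TAP2 gave -0.09 in H446 cells (SE 0.05, adjusted p = 0.149, limma) and 0.18 in BEAS-2B cells (SE 0.09, adjusted p = 0.426, limma), neither past the threshold. Without BEAS-2B 10 Gy replicate 2, the BEAS-2B value was 0.15 (adjusted p = 0.613, limma). TAP2 was highest in H446 controls, 1.93-fold above BEAS-2B by the means (log2 difference 0.89, SE 0.06, adjusted p = 1.58e-10, limma) and 1.68-fold above A549 controls (log2 difference 0.71, SE 0.06, adjusted p = 4.14e-09, limma). A549 controls were above BEAS-2B controls by 0.18 (SE 0.06, adjusted p = 0.0116, limma), with overlapping libraries. That call was lost without BEAS-2B control replicate 3 (0.13, adjusted p = 0.0774, limma, with a range of 0.00152 to 0.0774 over the alternatives).

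The change in TAP2 shows in the ratio of the transporter's subunits. In A549 cells the ratio of TAP1 to TAP2 was 1.57, 1.67 and 1.61 without radiation and 2.64, 2.36 and 2.37 after 10 Gy, with means of 1.62 ± 0.0525 and 2.46 ± 0.1604 (SD, n = 3 each). It was 1.22, 1.15 and 1.27 in H446 controls and 1.35, 1.25 and 1.26 after 10 Gy. The BEAS-2B values were 1.95, 2.02 and 2.33 without radiation and 2.22, 1.97 and 2.35 after 10 Gy. The groups overlapped in BEAS-2B and H446 cells and lay apart in A549 cells, where the irradiated libraries lay above all 6 BEAS-2B libraries. The value of TAP2 has a limit in sequence shared with other transcripts, which the other members have less of. Of the 50-base words of its longest GENCODE 29 transcript, 35.8% also occur in transcripts of other genes, and 32.3% of its exon bases overlap the gene AL669918.1 on the same strand, which is not analysed here. For the other 8 members that share of words was between 0 and 6.4%. How the shared reads were divided was not tested.

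The upstream windows of the transporter genes are shown because the genes lie close together, and TAP2 fell in A549 cells while TAP1 did not pass the test there. TAP1 (chr6:32853705-32853954, minus strand) holds a pair of overlapping response element cores and a kappaB match, and TAP2 (chr6:32838740-32838989, minus strand) holds 1 core, in capitals as above, in build GRCh38.p14 of RefSeq. Both thus carry letters that 3.02% of all promoters hold. Another RefSeq entry of TAP1 holds 0 cores and 0 kappaB matches, as do the entries of PSMB8 and PSMB9.
TAP1: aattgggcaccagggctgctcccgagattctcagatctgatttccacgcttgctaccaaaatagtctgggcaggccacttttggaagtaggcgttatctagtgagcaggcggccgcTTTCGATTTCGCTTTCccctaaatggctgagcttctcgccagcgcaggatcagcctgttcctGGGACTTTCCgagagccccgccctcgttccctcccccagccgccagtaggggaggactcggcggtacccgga
TAP2: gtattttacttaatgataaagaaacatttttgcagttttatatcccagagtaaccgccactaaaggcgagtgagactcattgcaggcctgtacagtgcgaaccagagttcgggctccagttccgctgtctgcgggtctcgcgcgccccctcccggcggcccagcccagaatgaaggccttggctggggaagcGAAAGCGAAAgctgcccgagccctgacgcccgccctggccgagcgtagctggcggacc

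PSMB8 (Entrez 5696) and PSMB9 (Entrez 5698) replace the catalytic subunits PSMB5 and PSMB6 in the immunoproteasome and shift which peptides are cut. In BEAS-2B cells, PSMB8 was at 52.3, 54.7 and 56.7 FPKM in the controls and 58.6, 58.8 and 63.3 after 10 Gy. In H446 cells, PSMB8 was at 58.5, 60.9 and 59.7 FPKM in the controls and 58.6, 57.04 and 57.3 after 10 Gy. In A549 cells, PSMB8 was at 27.3, 29.6 and 27.7 FPKM in the controls and 29.9, 33.6 and 28.3 after 10 Gy. Irradiated BEAS-2B libraries lay above their controls, the other groups overlapped, and all A549 libraries lay below those of the other lines. PSMB8 was called in 0 lines, with log2 fold changes of 0.14 in BEAS-2B (SE 0.07, adjusted p = 0.444, limma), or 0.07 with the GC trend removed, -0.05 in H446 (SE 0.03, adjusted p = 0.283, limma), which turned to 0.03 with the GC trend removed, and 0.11 in A549 cells (SE 0.06, adjusted p = 0.132, limma). The A549 value was called without A549 10 Gy replicate 3 (0.16, adjusted p = 0.037, limma, with a range of 0.037 to 0.501 over the alternatives) and with quantile normalization. That log2 fold change ran from 0.0457 to 0.165 over the alternatives. In the controls, PSMB8 was 1.93-fold lower in A549 than in BEAS-2B cells by the means (log2 difference -0.93, SE 0.06, adjusted p = 1.28e-11, limma). H446 controls were 2.12-fold above A549 controls (log2 difference 1.06, SE 0.06, adjusted p = 1.66e-12, limma). Against BEAS-2B controls they were higher by 0.13 (SE 0.06, adjusted p = 0.0409, limma), a call lost without H446 control replicate 2 (0.11, adjusted p = 0.113) or 3 (0.13, adjusted p = 0.0791) or BEAS-2B control replicate 1 (0.10, adjusted p = 0.155) or 2 (0.13, adjusted p = 0.0631), with a range of 0.000759 to 0.155 over the alternatives, and lost without limma's trend.

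PSMB9 set the lines apart in another order. In BEAS-2B cells, PSMB9 was at 49.0, 43.4 and 49.4 FPKM in the controls and 42.5, 46.5 and 51.7 after 10 Gy. In H446 cells, PSMB9 was at 8.04, 7.27 and 8.21 FPKM in the controls and 8.10, 8.19 and 7.35 after 10 Gy. In A549 cells, PSMB9 was at 15.4, 15.9 and 13.9 FPKM in the controls and 13.99, 16.4 and 15.7 after 10 Gy. Control and irradiated libraries overlapped in each line, and the lines did not overlap with each other. By the means of the controls, PSMB9 was 6.03-fold lower in H446 than in BEAS-2B cells (log2 difference -2.45, SE 0.08, adjusted p = 9.64e-16, limma). It was 3.13-fold lower in A549 than in BEAS-2B cells (log2 difference -1.58, SE 0.08, adjusted p = 6.96e-13, limma). H446 controls lay 1.93-fold below A549 controls (log2 difference -0.86, SE 0.08, adjusted p = 6.17e-09, limma), so that PSMB9 was the member called lower in H446 than in A549 cells. After 10 Gy, the log2 fold changes were -0.01 in BEAS-2B (SE 0.09, adjusted p = 0.965, limma), with the opposite sign under equal library totals, 0.01 in H446 (SE 0.06, adjusted p = 0.942, limma) and 0.02 in A549 cells (SE 0.07, adjusted p = 0.795, limma).

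The immunoproteasome subunits were set against the standard subunits they replace. PSMB10, the other immunoproteasome subunit, and PSMB7, which it replaces, are not members and were called in 0 lines after 10 Gy. The ratio of PSMB8 to PSMB5 was 0.598, 0.692 and 0.604 in BEAS-2B controls, 0.608, 0.575 and 0.562 in H446 controls and 0.269, 0.258 and 0.256 in A549 controls. The ratio of PSMB9 to PSMB6 was 0.303, 0.271 and 0.262 in BEAS-2B controls, 0.0716, 0.0617 and 0.0709 in H446 controls and 0.1299, 0.1295 and 0.123 in A549 controls. Across the lines, the PSMB8 to PSMB5 ratio of the controls was thus lowest in A549 cells, and the PSMB9 to PSMB6 ratio lowest in H446 cells. After 10 Gy the PSMB9 to PSMB6 ratio was 0.0945, 0.112 and 0.116 in A549 cells, below all 3 controls, and 0.0764, 0.0761 and 0.0793 in H446 cells, above all 3. In both lines it was PSMB6 that passed the test: it rose by 0.27 in A549 cells (SE 0.05, adjusted p = 0.000394, limma), and its log2 fold change was -0.18 in H446 cells (SE 0.05, adjusted p = 0.0242, limma). The H446 call was lost without H446 10 Gy replicate 3 (-0.11, adjusted p = 0.0551, limma), control replicate 2 (-0.16, adjusted p = 0.0817) or control replicate 3 (-0.17, adjusted p = 0.0616), and with the GC trend removed (-0.08, adjusted p = 0.225), no filter, no trend or 1 fit of all 18 libraries, with a range of 0.0136 to 0.225 over the alternatives. The mean ratio of PSMB10 to PSMB7 was 0.0419 ± 0.00658 for BEAS-2B, 0.0436 ± 0.00338 for H446 and 0.0931 ± 0.00462 for A549 controls (SD, n = 3 each).

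**Figure D3:**
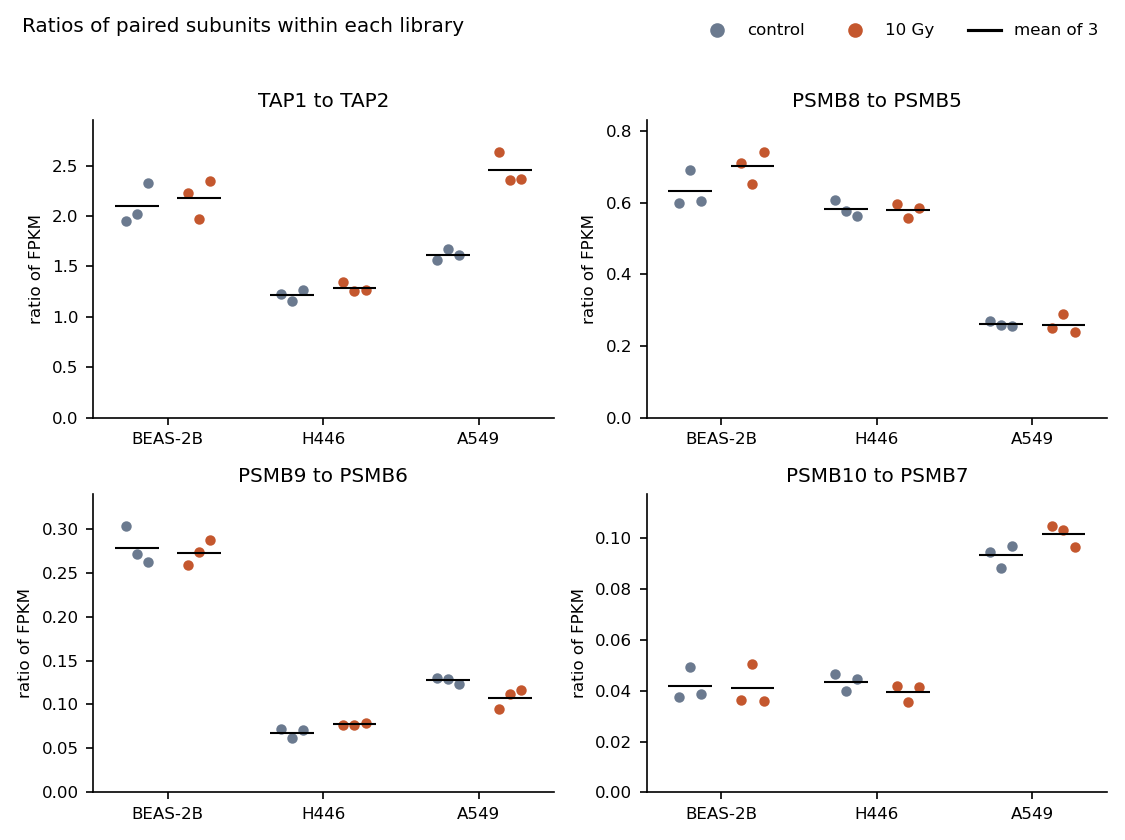
Ratios of FPKM within each of the 18 libraries for TAP1 to TAP2, PSMB8 to PSMB5, PSMB9 to PSMB6 and PSMB10 to PSMB7 (vertical axes, from 0), by line, with controls in grey, 10 Gy in orange and the mean of 3 as a bar. The ratio of TAP1 to TAP2 in A549 cells went from a mean of 1.62 to 2.46.

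Whether the lines responded differently was tested as the difference of their log2 fold changes, in the fit of all 18 libraries. TAP2 was the member called in each of the 3 comparisons. Its response was higher in BEAS-2B than in A549 cells by 0.67 (SE 0.09, adjusted p = 2.49e-05, limma), lower in A549 than in H446 cells, with a difference of -0.40 (SE 0.09, adjusted p = 0.00188, limma), and above that of H446 in BEAS-2B cells by 0.27 (SE 0.09, adjusted p = 0.0359, limma). Among all 13071 genes, the response was called higher in BEAS-2B than in A549 cells for 16.0% and lower for 14.6%. It was called higher in A549 than in H446 cells for 19.3% and lower for 15.3%, and for BEAS-2B against H446 cells it was higher for 13.7% and lower for 8.99%. The last pair, 1796 higher and 1175 lower, was 1238 higher and 1542 lower with quantile normalization and 628 higher and 739 lower with the GC trend removed, so that the direction of the excess depends on the scaling. Its total of 2971 was 4532 without BEAS-2B 10 Gy replicate 3 and 1811 without BEAS-2B control replicate 1. For A549 against H446 cells, 2524 higher and 2002 lower became 2239 higher and 2296 lower with quantile normalization and 2309 higher and 2405 lower with the GC trend removed. For BEAS-2B against A549 cells, 2089 higher and 1910 lower became 1934 higher and 2151 lower with quantile normalization. The first 2 calls of TAP2 were kept in 21 of 22 alternatives each, all but the one that also asked for a difference of at least 1 on the log2 scale. Without BEAS-2B 10 Gy replicate 2, the difference between BEAS-2B and A549 cells was 0.64 (adjusted p = 5.96e-05, limma, with a range of 7.12e-06 to 0.000139).

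The call of TAP2 between BEAS-2B and H446 cells was lost when any 1 of 8 libraries was left out, while the difference stayed at 0.22 to 0.28. It was lost without H446 10 Gy replicate 2 (0.23, adjusted p = 0.094) and without H446 control replicate 1 (0.28, adjusted p = 0.0568), 2 (0.27, adjusted p = 0.0657) or 3 (0.26, adjusted p = 0.0759), all in limma. It was also lost without BEAS-2B 10 Gy replicate 1 (0.25, adjusted p = 0.0757) or 2 (0.24, adjusted p = 0.0773) and without BEAS-2B control replicate 1 (0.26, adjusted p = 0.0779) or 3 (0.22, adjusted p = 0.0913), again in limma. The 3 scalings each ended it as well. It was kept in 9 of 22 alternatives, with an adjusted p of 0.00845 to 0.0942 over them. For TAP1, the same difference was 0.25 (SE 0.09, adjusted p = 0.0536, limma), and it was called without H446 10 Gy replicate 1 (0.29, adjusted p = 0.0356), H446 control replicate 2 (0.29, adjusted p = 0.0487), BEAS-2B 10 Gy replicate 2 (0.29, adjusted p = 0.0373) or BEAS-2B control replicate 2 (0.29, adjusted p = 0.0267), with a range of 0.0267 to 0.754, and under the filter that asks for 1 FPKM in every library. With the GC trend removed it was 0.05. For B2M it was -0.26 (SE 0.12, adjusted p = 0.113, limma), which turned to 0.01 with quantile normalization and was -0.14 with the GC trend removed, and it was called without BEAS-2B 10 Gy replicate 3 (-0.36, adjusted p = 0.0101) or control replicate 2 (-0.33, adjusted p = 0.0344), with a range of 0.0101 to 0.971, and with the replicate number as a block. For PSMB8 the difference was 0.19 (SE 0.08, adjusted p = 0.0892, limma), and it was called with that block (adjusted p = 0.0433, limma, with a range of 0.0433 to 0.719 over the alternatives), and was 0.05 with the GC trend removed. Between A549 and H446 cells, the difference for PSMB8 was 0.16 (SE 0.08, adjusted p = 0.124, limma), and it was called without A549 10 Gy replicate 3 (0.21, adjusted p = 0.0451), with a range of 0.0451 to 0.428, and was 0.09 with the GC trend removed.

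A rise called in H446 cells and not in another line is no test of a difference. For the 4 members that rose in H446 cells, the response of BEAS-2B minus that of H446 cells was -0.07 for HLA-B (adjusted p = 0.57, limma), -0.09 for HLA-E (adjusted p = 0.382), -0.28 for HLA-F (adjusted p = 0.101) and -0.26 for B2M (adjusted p = 0.113), with 0 called, and B2M alone among them turned under a scaling, quantile normalization. The response of A549 minus that of H446 cells was -0.11 for HLA-B (adjusted p = 0.351, limma), 0.00146 for HLA-E (adjusted p = 0.99, with the opposite sign under equal library totals and with the GC trend removed), -0.14 for HLA-F (adjusted p = 0.383) and -0.12 for B2M (adjusted p = 0.472), again with 0 called. Within a line, each library departs somewhat from the line's mean, and the size of that departure can follow the GC content of transcripts. Across genes, which are not independent, the Spearman correlation of departure and GC content was 0.459, 0.399 and 0.347 in H446 controls and -0.106, -0.473 and -0.496 after 10 Gy. For BEAS-2B the correlations were -0.629, 0.0133 and -0.379 in the controls and 0.449, 0.705 and -0.312 after 10 Gy. The transcripts of the heavy chains are rich in GC, with 59.0% in HLA-B, 62.7% in HLA-C, 54.8% in HLA-E and 57.7% in HLA-F, against 40.6% in B2M. With the trend removed, the log2 fold changes in H446 cells were 0.39 for HLA-B, 0.25 for HLA-C, 0.24 for HLA-E and 0.48 for HLA-F, each called and each larger than without the removal. In BEAS-2B cells they were 0.07, 0.06, -0.02 and -0.03, and 0 were called. The response of BEAS-2B minus that of H446 cells was then called for HLA-B (-0.30, adjusted p = 0.0125, limma), HLA-E (-0.25, adjusted p = 0.0102) and HLA-F (-0.48, adjusted p = 0.0114), and no longer for TAP2 (0.22, adjusted p = 0.0942). HLA-E was called for BEAS-2B minus A549 cells (-0.17, adjusted p = 0.0331, limma) and HLA-B for A549 minus H446 cells (-0.23, adjusted p = 0.0159). Over these 5 differences the adjusted p ran from 0.0102 to 0.965 across the alternatives. In H446 cells the GC correlation was positive in every control and negative in every irradiated library. The GC trend there thus cannot be told apart from the treatment. The part of the GC deviation in these values was not tested.

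Other genes of the pathway were followed in 6 lists of 63 genes, 61 of them in the table. After 10 Gy, 22 of the 51 genes tested in A549 cells were called higher and 12 lower, with a median log2 fold change of 0.10. In H446 cells 7 of 49 were higher and 7 lower, with a median of 0.04, and in BEAS-2B cells 0 of 52 were called in limma, with a median of 0.01. Without BEAS-2B 10 Gy replicate 2, 1 of the BEAS-2B genes was called, and the count was 2 with the replicate number as a block and 5 where all 18 libraries shared 1 fit. The H446 count of 14 was 8 in that fit, 6 at a threshold of 0.01, 7 without H446 10 Gy replicate 3, 8 without control replicate 2 and 8 without control replicate 3. Over all genes tested, 25.3% were called higher and 26.4% lower in A549 cells, 14.8% and 23.6% in H446 cells and 0.0% and 0.0% in BEAS-2B cells. The H446 background depends on the scaling. No list was tested against that background, here or in the lists that follow. The plot of the pathway lists shows each gene.

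**Figure D4:**
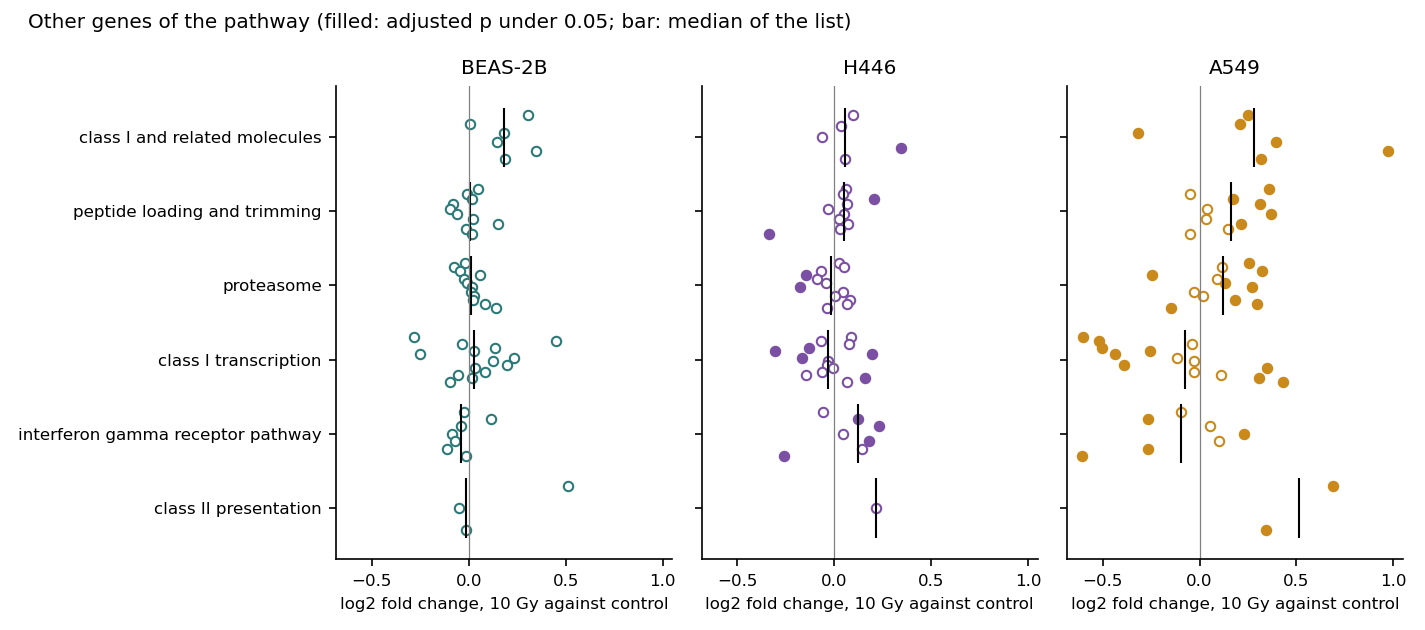
Log2 fold change of FPKM + 1 after 10 Gy (horizontal axes) for each tested gene of the 6 pathway lists (vertical axis) in BEAS-2B, H446 and A549 cells. Filled points have an adjusted p under 0.05 (limma), bars are list medians, and 34 points are filled in A549 cells against 14 in H446 and 0 in BEAS-2B cells.

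Among class I and related molecules, 5 of 6 tested genes were called higher and 1 lower in A549 cells, with a median of 0.28. In H446 cells 1 of 5 was higher and 0 lower. MR1, which presents vitamin B metabolites to T cells, moved most in both of these lines. In A549 cells, MR1 was at 5.49, 5.15 and 5.37 FPKM in the controls and 11.98, 11.5 and 10.8 after 10 Gy, and in H446 cells at 2.55, 2.54 and 2.42 and 3.53, 3.39 and 3.43. Irradiated libraries lay above the controls in both. In BEAS-2B cells it was at 2.57, 2.77 and 2.83 FPKM in the controls and 3.63, 2.56 and 5.45 after 10 Gy, with a log2 fold change of 0.35 (SE 0.17, adjusted p = 0.438, limma), or 0.55 without 10 Gy replicate 2 (adjusted p = 0.0725, limma, with a range of 0.0725 to 0.971 over the alternatives) and 0.13 without 10 Gy replicate 3, and it was not called. The log2 fold change was 0.97 in A549 cells (SE 0.06, adjusted p = 9.65e-08, limma) and 0.35 in H446 cells (SE 0.07, adjusted p = 0.00245, limma). The H446 call was lost when all 18 libraries shared 1 fit (adjusted p = 0.0603, limma, with a range of 0.000692 to 0.0603 over the alternatives). Peptide loading and trimming genes were called higher for 5 of 10 and lower for 0 in A549 cells, and higher for 1 and lower for 1 of 10 in H446 cells. The aminopeptidase NPEPPS went from 52.6, 50.97 and 52.5 to 64.8, 68.4 and 69.1 FPKM in A549 cells, a rise of 0.37 (SE 0.04, adjusted p = 1.06e-05, limma). THOP1, a peptidase that breaks peptides down in the cytosol, went from 34.5, 34.8 and 36.02 to 29.0, 26.96 and 26.97 FPKM in H446 cells, a log2 fold change of -0.33 (SE 0.04, adjusted p = 0.000235, limma). It was -0.14 with the GC trend removed and stayed called (adjusted p = 0.0193, limma, with a range of 0.000193 to 0.0193 over the alternatives).

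TAPBP, or tapasin, holds heavy chains at the transporter, and ERAP1 trims peptides in the endoplasmic reticulum. In A549 cells, TAPBP was at 30.9, 31.01 and 29.7 FPKM in the controls and 33.8, 35.6 and 37.6 after 10 Gy, without overlap, and rose by 0.22 (SE 0.05, adjusted p = 0.002, limma). Its log2 fold change was 0.07 in H446 cells (SE 0.05, adjusted p = 0.271, limma) and 0.15 in BEAS-2B cells (SE 0.11, adjusted p = 0.572, limma), or 0.07 without 10 Gy replicate 2 and 0.05 with the GC trend removed. With the GC trend removed, TAPBP was called in H446 cells (0.20, adjusted p = 0.00296, limma, with a range of 0.00296 to 0.685 over the alternatives). In H446 cells, ERAP1 was at 18.1, 17.9 and 18.01 FPKM in the controls and 19.7, 20.5 and 22.7 after 10 Gy, and in A549 cells at 14.3, 12.8 and 14.9 and 15.9, 16.0 and 15.8. Irradiated libraries lay above the controls in both lines. ERAP1 rose by 0.21 in H446 cells (SE 0.05, adjusted p = 0.011, limma) and by 0.17 in A549 cells (SE 0.06, adjusted p = 0.0233, limma). The A549 call was lost without A549 10 Gy replicate 2 (0.17, adjusted p = 0.0556, limma) or control replicate 2 (0.11, adjusted p = 0.0931), with a range of 0.011 to 0.0931 over the alternatives, and without the filter. In BEAS-2B cells, ERAP1 gave 0.01 (SE 0.08, adjusted p = 0.956, limma), or 0.04 without 10 Gy replicate 2.

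Proteasome genes were called higher for 6 of 12 and lower for 2 in A549 cells, with a median of 0.12, and lower for 2 and higher for 0 of 12 in H446 cells. PSMA3, a structural subunit of the core, went from 124, 119 and 121 to 155, 151 and 149 FPKM in A549 cells, a rise of 0.32 (SE 0.04, adjusted p = 1.52e-05, limma). PSMB5 went from 101, 115 and 108 to 119.9, 117 and 118 FPKM there, a rise of 0.13 (SE 0.04, adjusted p = 0.0272, limma). The call of PSMB5 was lost without A549 10 Gy replicate 1 (0.12, adjusted p = 0.0694, limma) or 3 (0.13, adjusted p = 0.0505) or control replicate 1 (0.09, adjusted p = 0.146) or 3 (0.13, adjusted p = 0.0554), with a range of 0.00627 to 0.146 over the alternatives, and without the filter, without limma's trend or in 1 fit of all 18 libraries. PSMB10 gave 0.09 in A549 cells (SE 0.06, adjusted p = 0.245, limma) and was called without A549 10 Gy replicate 3 (0.16, adjusted p = 0.0382, with a range of 0.0382 to 0.651). Of the class II presentation genes, 2 of 2 tested were called higher in A549 cells. HLA-DMA, which loads class II molecules, went from 1.36, 1.38 and 0.870 to 2.42, 2.83 and 2.36 FPKM there, a rise of 0.69 (SE 0.10, adjusted p = 0.000178, limma), or 1.04 with a pseudocount of 0.1. The 9 class II genes in the table also mark professional antigen-presenting cells. Their sums were 15.3, 18.3 and 17.7 FPKM in the controls and 23.5, 21.3 and 20.7 after 10 Gy in BEAS-2B cells and 3.14, 2.63 and 2.03 FPKM in the controls and 4.83, 4.62 and 4.81 after 10 Gy in A549 cells, higher after 10 Gy without overlap in both, and 2.65, 3.49 and 3.45 FPKM in the controls and 3.28, 3.41 and 3.09 after 10 Gy in H446 cells. CD74 was the most abundant in BEAS-2B cells, at 9.39, 12.2 and 10.6 FPKM in the controls and 17.4, 15.6 and 14.2 after 10 Gy, and HLA-DMA in the others. What these sums mean for the members was not tested. HLA-DRA was at 0 in all BEAS-2B and A549 libraries. In BEAS-2B cells 0 of 3 class II genes were called, and in H446 cells 0 of 1.

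The genes that switch class I transcription on moved in both directions. In A549 cells 3 of 14 were called higher and 6 lower, with a median of -0.08, and in H446 cells 2 were higher and 3 lower. NLRC5, the transactivator that binds class I promoters, was at 1.48, 1.68 and 1.56 FPKM in BEAS-2B controls, 6.17, 6.33 and 6.57 in H446 controls and 1.06, 1.06 and 0.990 in A549 controls. It was thus highest in H446 cells, without overlap. After 10 Gy its log2 fold change was 0.12 in BEAS-2B (SE 0.09, adjusted p = 0.575, limma), or 0.08 without 10 Gy replicate 2 and 0.03 with the GC trend removed, -0.03 in H446 (SE 0.06, adjusted p = 0.705, limma), turning to 0.10 with the GC trend removed, and -0.03 in A549 cells (SE 0.09, adjusted p = 0.807, limma). IRF1, a factor that binds interferon response elements, was at 36.4, 38.2 and 35.5 FPKM in A549 controls and 23.7, 26.9 and 25.5 after 10 Gy. The BEAS-2B values were 23.2, 27.1 and 22.8 FPKM without radiation and 36.5, 27.9 and 37.1 after 10 Gy. Those of H446 cells were 13.2, 14.2 and 12.9 FPKM without radiation and 13.9, 10.9 and 13.6 after 10 Gy. Irradiated libraries lay below the controls in A549 and above them in BEAS-2B cells, where replicate 2 was the lowest of the irradiated 3. The log2 fold change of IRF1 was -0.52 in A549 cells (SE 0.05, adjusted p = 6.38e-06, limma), -0.07 in H446 cells (SE 0.08, adjusted p = 0.516, limma), with the opposite sign once the GC trend was removed, and 0.45 in BEAS-2B cells (SE 0.11, adjusted p = 0.249, limma). The BEAS-2B value was 0.58 and was called without 10 Gy replicate 2 (adjusted p = 0.00857, limma). It was also called with the replicate number as a block (adjusted p = 0.0084, limma) and where all 18 libraries shared 1 fit (adjusted p = 0.0144), with a range of 0.0084 to 0.904 over the alternatives.

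CREB1, a factor that binds class I promoters, went from 22.2, 21.8 and 22.2 to 14.1, 13.6 and 14.9 FPKM in A549 cells, a log2 fold change of -0.60 (SE 0.05, adjusted p = 9.30e-07, limma). In BEAS-2B cells it was -0.28 (SE 0.08, adjusted p = 0.254, limma), or -0.23 without 10 Gy replicate 2 and -0.15 with the GC trend removed, and was called where all 18 libraries shared 1 fit (adjusted p = 0.0206, limma, with a range of 0.0206 to 0.904 over the alternatives). In H446 cells CREB1 was at 8.30, 7.21 and 6.96 FPKM in the controls and 8.56, 8.08 and 7.37 after 10 Gy, with overlap. Its log2 fold change there was 0.0037 to 0.153 over 17 alternatives and was called in 0 of them. NFYA, a subunit of the factor that binds CCAAT, went from 4.48, 4.48 and 4.78 to 3.53, 3.48 and 3.52 FPKM in H446 cells, a log2 fold change of -0.31 (SE 0.06, adjusted p = 0.00332, limma), and was also called in A549 cells, at -0.25 (SE 0.06, adjusted p = 0.00269, limma). In the interferon gamma receptor pathway, 3 of 7 tested genes were called higher and 1 lower in H446 cells, and 1 higher and 3 lower in A549 cells. SOCS3, a brake on cytokine signals, went from 48.9, 50.2 and 46.1 to 31.6, 29.6 and 33.3 FPKM in A549 cells, a log2 fold change of -0.61 (SE 0.05, adjusted p = 1.57e-06, limma). In H446 cells it went from 7.14, 7.78 and 7.48 to 6.36, 6.60 and 5.35 FPKM, a log2 fold change of -0.26 (SE 0.07, adjusted p = 0.0196, limma). The H446 call was lost without H446 10 Gy replicate 3 (-0.18, adjusted p = 0.0614, limma) or control replicate 2 (-0.23, adjusted p = 0.072) and with the GC trend removed (-0.10, adjusted p = 0.297), quantile normalization or no filter, with a range of 0.0147 to 0.297 over the alternatives.

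Across the 18 libraries the members shared 1 pattern only in part. The Pearson r of each member with the mean of the 9 standardised members was 0.994 for HLA-B, 0.981 for HLA-F, 0.977 for HLA-C, 0.967 for PSMB8, 0.842 for TAP1, 0.724 for B2M, 0.709 for HLA-E, 0.448 for TAP2 and 0.337 for PSMB9, each member being part of that mean. The libraries fall into 3 lines, so these values describe mainly how the lines are ordered. Among 13009 other genes outside the lists, the 5 most like the mean were TMEM25 (0.993), TMEM173 (0.992), CLIC3 (0.992), CDK2 (0.990) and C6orf106 (0.990), over 18 libraries. All 5 were highest in BEAS-2B and lowest in A549 cells, with TMEM173, the STING adaptor of DNA sensing, at a mean of 27.1, 12.4 and 0.893 FPKM in BEAS-2B, H446 and A549 cells.

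Of the 9 members, 8 share a chromosome, which the rule did not use. In RefSeq on GRCh38.p14, chromosome 6 holds HLA-F (29723434 to 29738532), HLA-E (30489509 to 30494194), HLA-C (31268749 to 31272092), HLA-B (31353875 to 31357179), TAP2 (32821831 to 32838739), PSMB8 (32840717 to 32844679), TAP1 (32845209 to 32853704) and PSMB9 (32854192 to 32859851). TAP1 and PSMB9 are read in opposite directions from starts 488 bases apart, so that they share 1 stretch of upstream sequence. Their levels did not follow each other across the lines: between H446 and BEAS-2B controls the log2 difference was 0.16 for TAP1 and -2.45 for PSMB9. After 10 Gy in A549 cells, TAP2 gave -0.49, PSMB8 0.11, TAP1 0.06 and PSMB9 0.02 on the log2 scale, of which TAP2 was called, and the differences between genes were not tested. The gene PSMB8-AS1, not analysed here, overlaps 20.6% of the exon bases of PSMB8 and 9.5% of those of TAP1 on the opposite strand and 5.7% of those of PSMB9 on the same strand, and PSMB8 and PSMB9 overlap each other by 4.6% and 4.5%. On the opposite strand, AL671883.2 overlaps 17.8% of the exon bases of HLA-B. HLA-F is overlapped in the same way by AL645939.1 (16.1%), HLA-F-AS1 (12.3%) and RPL23AP1 (5.9%), and these genes were not analysed here either. The part of the overlaps in the values of the members was not tested.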

How the data were processed

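RNA was read from 18 libraries of BEAS-2B, H446 and A549 cells, 3 controls and 3 at 24 h after 10 Gy in each line, as single-end 50-base reads. The deposited table was read as FPKM, a unit inferred from the values and the submitters' notes, in which the authors name HISAT2 2.0.4, Bowtie2 2.2.5 and RSEM 1.2.12 on build hg38. The 9 members and the lists were chosen with earlier results of these data known. In each line, limma 3.58.1 (R 4.3.3, eBayes with trend) was fitted to log2(FPKM + 1) of all genes at 1 FPKM or more in at least 3 libraries, and p-values were adjusted by Benjamini-Hochberg over all of them. Differences between lines came from 1 fit of 18 libraries with 6 group means. Tables and figures used Python 3.11.15, pandas 2.3.3, numpy 2.4.6, scipy 1.17.1 and matplotlib 3.10.9. In each of the 6 pathway lists, the called gene with the largest change in each line whose groups do not overlap was named, and NLRC5, IRF1, TAPBP, ERAP1, PSMB10, PSMB5, PSMB6 and PSMB7 always. The 5 marker lists gave sums. The 5 genes most like the members were taken by Pearson r. The list genes IFNG, HLA-DQA1, CD3E, TYROBP, NEUROD1 and INSM1 were not analysed here. Upstream sequences and positions came from RefSeq, and GC content and overlaps from GENCODE 29. Read counts were not used here and the depth of each library is unknown, and only a relative depth of 0.923 to 1.08 could be worked out from 124 to 157 short genes. Totals ran from 461255 to 529936 FPKM. The table holds 1 value per gene, so alleles of HLA genes are not separated. Alternatives were quantile normalization, equal library totals, removal of the trend on GC content (loess, span 0.5), a pseudocount of 0.1, no filter, a value of at least 1 in every library, no trend, a threshold of 0.01, a log2 change of at least 1, a block on the replicate number, 1 fit of all 18 libraries for the responses, and each library left out.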

Additional observations from a re-analysis of the deposited data

Results flagged for a closer look

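The response of TAP2 to 10 Gy, as a log2 fold change of FPKM + 1, differed between each pair of lines in limma. The response of BEAS-2B minus that of H446 cells was 0.2694, that of BEAS-2B minus A549 cells was 0.6718, and that of A549 minus H446 cells was -0.4024. The adjusted p over the alternatives ran from 0.00845 to 0.0942 for BEAS-2B against H446 cells, and from 7.12e-06 to 0.000139 for BEAS-2B against A549 cells. Between A549 and H446 cells it ran from 0.000446 to 0.007. TAP2 shares 35.8% of its 50-base words with transcripts of other genes, and the part of those in the differences was not tested.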

How the results depend on the processing

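The 81 log2 fold changes of members were computed under 1458 alternatives in all. Direction and side of the threshold were kept in 1294, the call was lost in 75 and gained in 25, and 64 moved without a call. No called value changed sign. The count of members called after 10 Gy went from 0 to 1 in BEAS-2B cells where all 18 libraries shared 1 fit. It went from 4 to 2 in H446 cells in that fit, and to 0 where a log2 change of at least 1 was also asked for. In A549 cells it went from 3 to 5 with quantile normalization, to 1 without the trend, to 1 at a threshold of 0.01, to 0 with a change of at least 1, and it ran from 1 to 4 with 1 library left out. With a difference of at least 1, the count went from 9 to 4 for H446 against BEAS-2B controls and from 8 to 5 for H446 against A549 controls. For the response of BEAS-2B minus that of H446 cells, the count of 1 was 0 with quantile normalization, 0 with equal totals, 3 with the GC trend removed, 2 with a value of at least 1 in every library, 0 at 0.01, 0 with a difference of at least 1, 3 with the replicate block, and 0 to 3 with 1 library left out. For BEAS-2B minus A549 cells it was 2 with the GC trend removed and 0 with a difference of at least 1. For A549 minus H446 cells it was 2 and 0 under the same settings, and 1 to 2 with 1 library left out. The cause was not tested. The replicate block could not be fitted for the comparisons of controls, since it absorbs the difference between lines. Replicate numbers were not taken as pairs: 3 of 9 same-number correlations were over 0.1 (-0.125 to 0.324). With 1 library left out, the group of 2 is assumed to vary like the others. Of 861 alternatives for 51 values of named list genes, 767 kept direction and side, 48 lost the call, 7 gained it and 39 moved. Over all genes tested, 0 were called in BEAS-2B cells, and 1 without the filter, 439 with the block, 842 with all 18 libraries in 1 fit and 233 without BEAS-2B 10 Gy replicate 2. Read counts were not used here, so what depth limits could not be computed.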
